A study of Drosophila melanogaster with 12 samples.

Results

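The vacuolar ATPase is a rotary proton pump of endosomes, lysosomes, secretory vesicles and some plasma membranes. A peripheral sector in the cytosol splits ATP and turns a ring of proteolipids in the membrane sector, and the ring carries protons past the large subunit a. The pump acidifies the compartments in which receptors and ligands are sorted and degraded, and in imaginal discs this acidification is needed for Notch and Wingless signalling. Many of its subunits are encoded in *Drosophila* by more than 1 gene, and several of the further copies are known mainly from single adult tissues such as the testis. The genes described here are all rows whose symbol starts with Vha, 32 of the 17208 genes in each deposited table.

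RNA was taken from pooled imaginal discs of larvae in the third instar. Each eye library came from 40 eye antennal discs and each wing library from 30 wing discs. The eye libraries were 3 of GMR-Gal4 > w1118 controls and 3 of GMR-Gal4 > UAS-*fuss* larvae, and the wing libraries were 3 of nub-Gal4 > w1118 controls and 3 of nub-Gal4 > UAS-*fuss* larvae. Every group thus carries a Gal4 driver, GMR-Gal4 being active behind the morphogenetic furrow of the eye and nub-Gal4 in the wing pouch, and each pool also holds cells in which the driver is silent. A source field of the eye samples names the nub-Gal4 line, whereas their genotype field names GMR-Gal4, which was used. The value analysed is the mean normalized count of a gene over the 6 libraries of a tissue, both genotypes pooled, as the authors computed it. It is a level without a measure of spread, so none of the differences below was tested, and an effect of *fuss* cannot be read from it. The authors' columns that compare the genotypes were not used here.

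The means of all genes summed to 29977881 in eye discs and 34175754 in wing discs. The *fuss* gene had a mean of 16643 in eye discs and 10363 in wing discs over both genotypes. Of 8 regulators and markers of the eye disc, such as *gl*, *eya* and *elav*, 8 were at least 2-fold higher in the eye table, and of 8 genes of the wing disc, such as *vg*, *nub* and *ap*, 8 were lower there, 3 of them by at least 2-fold. Genes of the larval fat body were also abundant. The 4 genes *Lsp1alpha*, *Lsp1beta*, *Lsp2* and *Fbp1* summed to 105417 in eye discs and 306701 in wing discs. Among 4 muscle genes 1 was at least 2-fold lower in eye discs. Of 4 tracheal genes 1 was higher and 2 were lower by this fold. All 4 salivary gland genes were lower in eye discs, 1 of them by at least 2-fold. Every gene of these lists was measured in both tissues. The part of RNA from these tissues in the levels below was not tested. Of the eye libraries 2 were run on lane 5 and 4 on lane 6, and of the wing libraries 4 on lane 5 and 2 on lane 6.

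With a mean of at least 10 counted as measured, 20 of the 32 genes were measured in eye discs and 17 in wing discs. The same minimum was reached by 59.0% of all genes in the eye table and by 57.2% in the wing table. All 17 genes of the wing discs were among the 20 of the eye discs. Over all genes, 9465 were measured in both tissues, out of 10161 in eye discs and 9846 in wing discs. The lowest measured member in eye discs was *Vha100-4* with a mean of 12.9 and the highest below the minimum was *Vha100-3* with 6.16. In wing discs the gap was wider, from *Vha100-4* at 7.16 to *Vha68-1* at 114.

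The peripheral sector is built of subunits A to H, and each of them had 1 gene at a high level in both tissues. Subunit A binds and splits ATP, and its main gene *Vha68-2* had a mean normalized count of 6897 in eye discs and 8251 in wing discs. The partner subunit B is encoded by *Vha55* alone, with a mean of 6559 in eye discs and 7230 in wing discs. Divided by the length of the longest annotated transcript, which is needed to compare genes, *Vha68-2* reached 2725 per kilobase in eye discs and *Vha55* reached 2410. Both subunits of the catalytic head thus stood close to each other, with wing values of 3260 per kilobase for *Vha68-2* and 2656 for *Vha55*.

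The central stalk, which turns inside the catalytic head, consists of subunits D and F. Its D subunit gene *Vha36-1* had a level of 1926 per kilobase in eye discs and 2301 in wing discs. The F subunit gene *Vha14-1* stood at 2431 per kilobase in eye discs and 2617 in wing discs. Both genes are intronless in their annotated transcript and lie on chromosome arm 2R.

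The outer stalks hold the catalytic head still and are made of subunits E and G, which subunits C and H join to the membrane sector. *Vha26*, the single gene of subunit E, had a level of 2241 per kilobase in eye discs and 2308 in wing discs. *Vha13*, the single gene of subunit G, had the highest level of the sector, with 3515 per kilobase in eye discs and 3889 in wing discs. This rank depends on the length used, since *Vha26* was above *Vha13* in eye discs with the coding length, and without division by length subunit G ranked 8 of 14 in both tissues. Subunit C, whose release uncouples the sectors in yeast and insects, had the lowest summed level of all 14 subunits. Its gene *Vha44* lies on chromosome arm 2R of BDGP6.54 from 16324813 to 16336637 and reached 696 per kilobase in eye discs and 747 in wing discs. It remained the lowest with the mean transcript length and with the coding length in place of the longest transcript, but not when the means were left undivided. The regulatory subunit H is encoded by *VhaSFD*, with a mean normalized count of 4154 in eye discs and 3349 in wing discs.

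**Figure D1:**
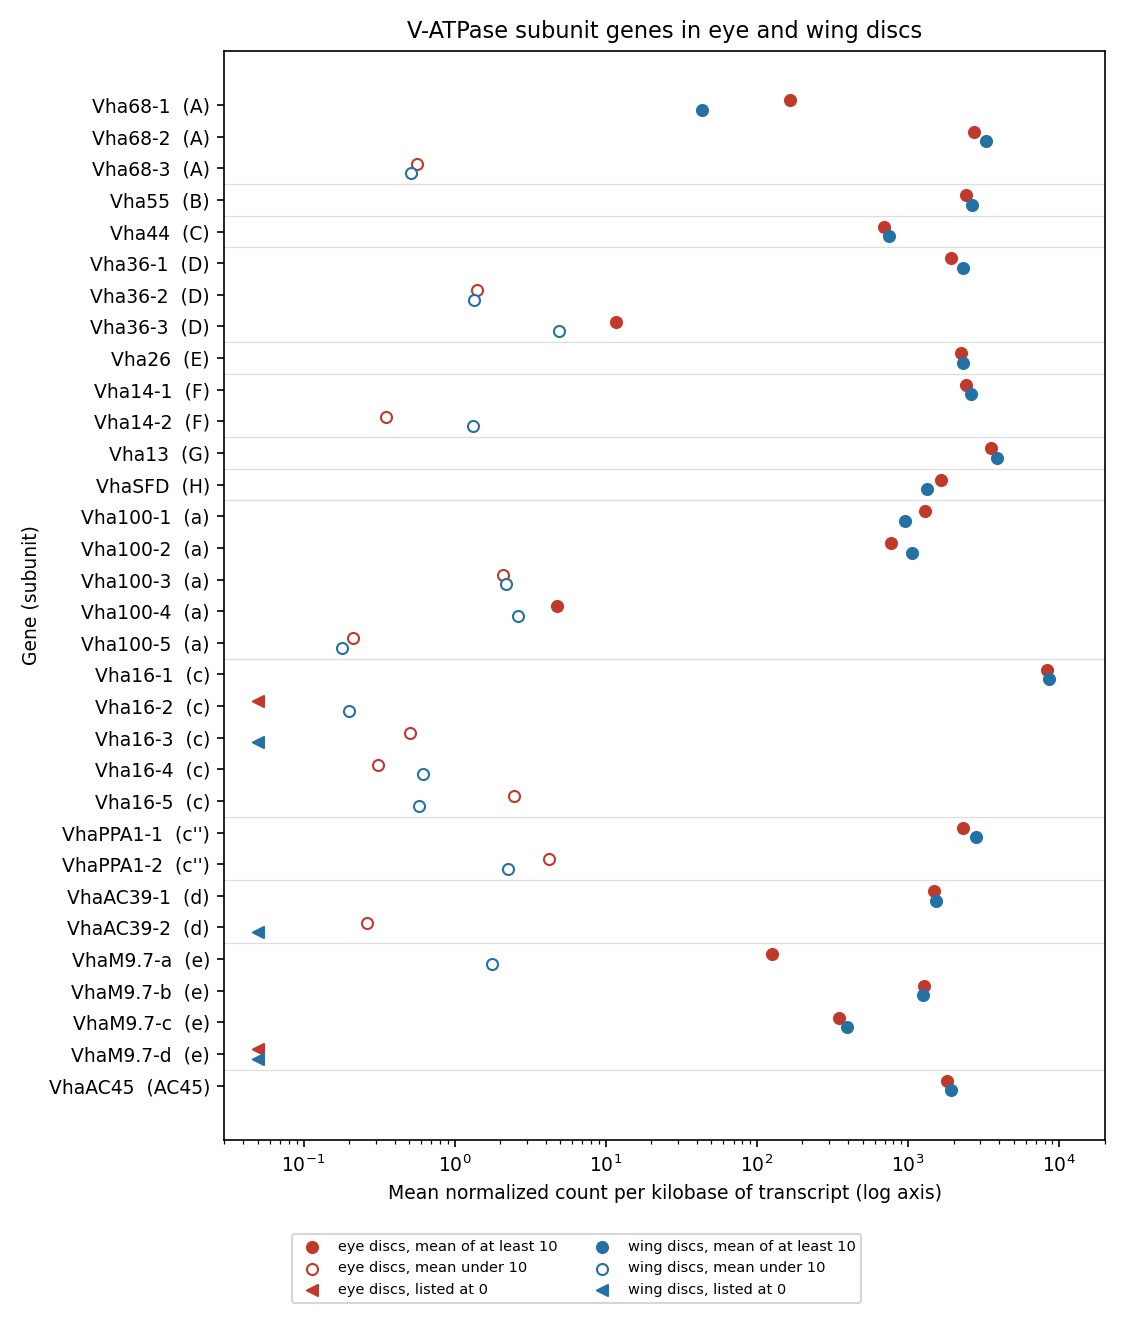
Mean normalized count per kilobase of the longest annotated transcript (x axis, log scale) for each of the 32 genes (y axis, subunit in brackets) in eye discs (red) and wing discs (blue), each point being the authors' mean over 6 libraries without an error. Filled points have a mean of at least 10, open points a lower mean, and triangles at the left edge stand for genes listed at 0. *Vha16-1* lies farthest to the right at 8247 in eye discs and 8526 in wing discs, and the further copies of most subunits lie far to the left of the main gene.

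In the membrane sector the proteolipid subunit c forms most of the rotor ring and is present in several copies per pump. Its gene *Vha16-1*, on chromosome arm 2R of BDGP6.54 from 6625242 to 6633090, had the highest level of the whole family, with a mean normalized count of 24584 in eye discs and 25416 in wing discs. Per kilobase this was 8247 in eye discs and 8526 in wing discs, which placed the gene at percentile 97.9 of the genes measured in eye discs and 97.5 of those in wing discs. The level of subunit c, summed over its genes, was 2.35 times that of the next subunit, G, in eye discs and 2.19 times in wing discs. With the coding length the factor over the next subunit was 5.33 in eye discs and 5.10 in wing discs, and without division by length, with subunit A next, it was 3.35 and 3.04. Subunit c led in each of these cases, but by how much rests on the length used.

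The ring also holds a single subunit c'', whose main gene *VhaPPA1-1* stood at 2291 per kilobase in eye discs and 2793 in wing discs. *VhaAC39-1* encodes subunit d, which joins the ring to the central stalk, and had 1491 per kilobase in eye discs and 1537 in wing discs. The accessory protein AC45, an assembly factor of the membrane sector, is encoded by *VhaAC45*, with 1801 per kilobase in eye discs and 1923 in wing discs. All 3 genes thus lay within the range of the peripheral subunits.

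Across the 14 subunits the summed level per kilobase spanned 11.9-fold in eye discs and 11.4-fold in wing discs, and 5.05-fold and 5.21-fold without subunit c. With the coding length the span was 47.9-fold in eye discs and 46.2-fold in wing discs, and 8.99-fold and 9.06-fold without subunit c. The median leading copy of the 8 peripheral subunits was 1.56 times that of the 5 membrane subunits in eye discs and 1.60 times in wing discs. This order also depended on the length used. With the coding length the ratio was 0.827 in eye discs and 0.802 in wing discs, so that no order of the sectors can be given.

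The copies of a subunit were used very unequally. Of the 14 subunits, 6 have a single gene and 8 have between them 26 genes. In 6 of these 8 subunits, namely A, D, F, c, c'' and d, the leading copy made up at least 90% of the summed level per kilobase in eye discs, and the same number held in wing discs. *Vha16-1* contributed 99.96% of subunit c in eye discs, and *Vha36-1* contributed 99.3% of subunit D. Subunits a and e were the exceptions in both tissues.

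**Figure D2:**
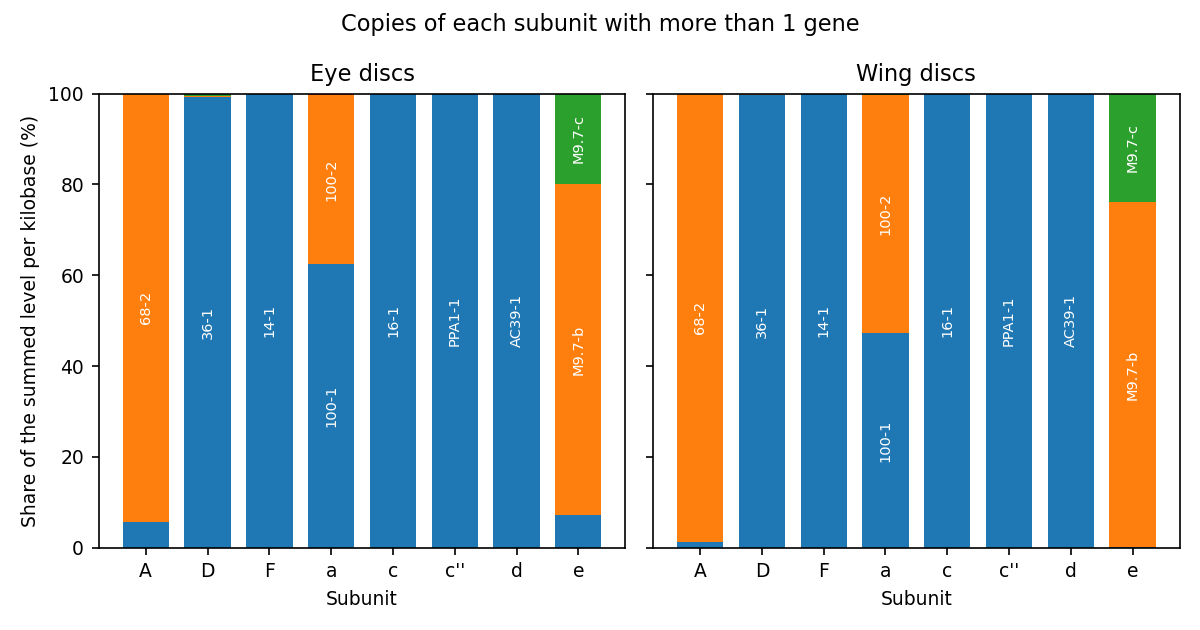
Share of the summed level per kilobase (y axis, percent) taken by each gene of the 8 subunits that have more than 1 gene (x axis), for eye discs on the left and wing discs on the right. Colours separate the genes of a subunit and labels name those with a share of at least 10%. Subunit a is divided between *Vha100-1* and *Vha100-2*, and subunit e between *VhaM9.7-b* and *VhaM9.7-c*, with a share of 7.15% for *VhaM9.7-a* in eye discs only.

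Subunit a forms the proton path and sets the compartment to which a pump is targeted. *Vha100-1*, known from neurons where it serves at synapses, lies on chromosome arm 3R of BDGP6.54 from 29131193 to 29137980, with 11 exons in its longest transcript. *Vha100-2* lies on the same arm from 18390323 to 18399169 and has 6 exons in its longest transcript. *Vha100-1* had a mean normalized count of 3942 in eye discs and 2911 in wing discs. *Vha100-2* had 2329 in eye discs and 3209 in wing discs. In eye discs *Vha100-1* thus led with 62.5% of the subunit's level per kilobase against 37.2%, whereas in wing discs *Vha100-2* stood at 52.5% and *Vha100-1* at 47.3%. The leading gene of each tissue was the same with the mean transcript length and the coding length, but without a spread over libraries it cannot be said whether the near tie in wing discs is a difference.

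Subunit e is a small membrane protein with 4 genes. The main gene *VhaM9.7-b*, on chromosome arm 3L of BDGP6.54 from 21539862 to 21541215, had a mean normalized count of 1553 in eye discs and 1518 in wing discs. *VhaM9.7-c*, on the same arm from 4186018 to 4186865, had 297 in eye discs and 333 in wing discs. *VhaM9.7-a*, from 4262705 to 4263464 on that arm, had a mean of 89.0 in eye discs and 1.25 in wing discs, and *VhaM9.7-d* was listed at 0 in both tables. The first 2 of these genes were thus nearly level between the tissues, while *VhaM9.7-a* was measured in eye discs alone.

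Tissues were compared by the log2 ratio of the eye mean to the wing mean. The tables were normalized separately, and the median ratio of the 9465 genes measured in both was -0.18 on the log2 scale. All ratios below are given relative to this median. The 17 V-ATPase genes measured in both tissues had a median log2 ratio of 0.08 and ranged from -0.28 to 2.12, with 13 above and 4 below 0. Without centring their median was -0.10, so the direction of the family as a whole rests on the scaling. A ratio within 0.5 on the log2 scale was found for 15 of the 17 genes, or 88.2%, and for 76.9% of all genes. Among genes with a mean of at least 1000 in both tissues the same window held 14 of 15 V-ATPase genes and 92.5% of 4415 genes in all.

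Of the 17 genes, 1 was at least 2-fold higher in eye discs and 0 were at least 2-fold lower. Of all 9465 genes, 9.04% were higher by this fold in eye discs and 4.51% were lower, so the count for the V-ATPase was not above the background. The single gene was *Vha68-1*, a further gene of the catalytic subunit A, with a mean of 434 in eye discs and 114 in wing discs. This is 4.34-fold higher in eye discs, a log2 ratio of 2.12, at percentile 95.8 of all genes. *Vha68-1* still made up only 5.75% of subunit A per kilobase in eye discs and 1.32% in wing discs, next to *Vha68-2*, which differed by -0.07 on the log2 scale.

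**Figure D3:**
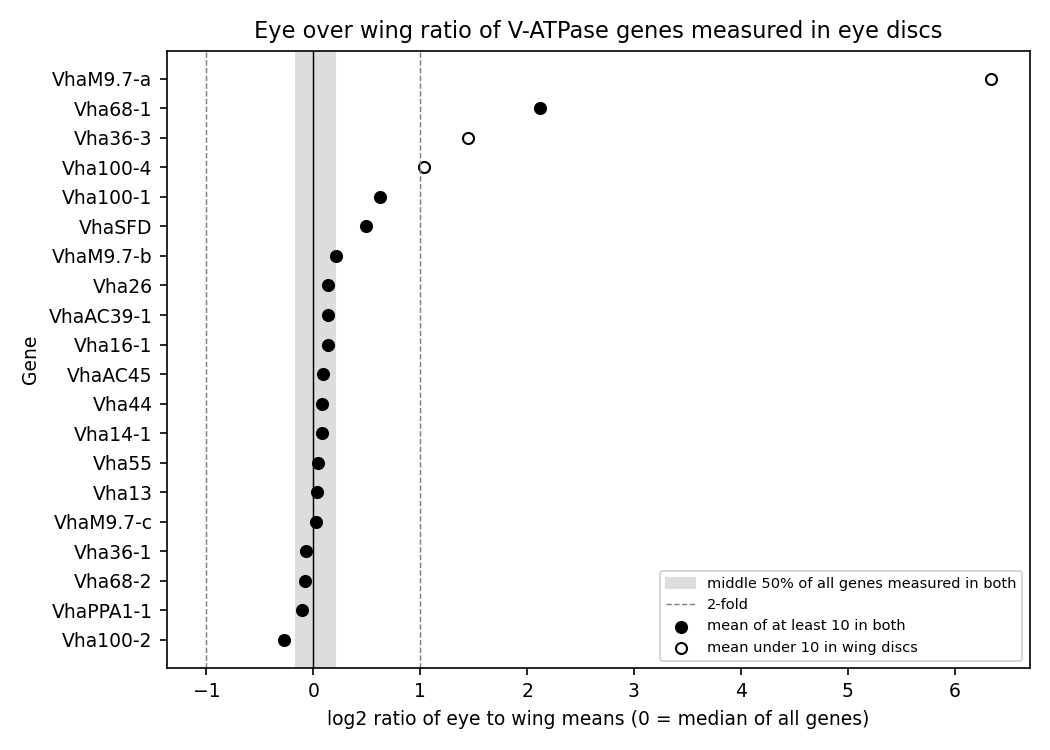
Log2 ratio of the eye mean to the wing mean (x axis, with 0 at the median of all genes) for the 20 V-ATPase genes measured in eye discs (y axis, sorted). Filled points are measured in both tissues, open points have a mean under 10 in wing discs, the grey band runs from the lower to the upper quartile of all genes, and dashed lines mark 2-fold. Most filled points lie close to 0, and *Vha68-1* at 2.12 is the only filled point beyond a dashed line.

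After *Vha68-1* the highest ratios were those of *Vha100-1*, with 0.62 on the log2 scale or 1.54-fold, and *VhaSFD*, with 0.50 or 1.41-fold. *Vha100-1* stood at percentile 87.7 of all genes and *VhaSFD* at 85.7. At the other end *Vha100-2* had a log2 ratio of -0.28, that is 1.21-fold higher in wing discs, at percentile 15.4. The main subunit a genes of the pump thus lay at opposite ends of the filled points other than *Vha68-1*. The remaining 13 genes lay between -0.10 for *VhaPPA1-1* and 0.22 for *VhaM9.7-b*, among them every other main gene of the peripheral sector.

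*VhaM9.7-a*, *Vha36-3* and *Vha100-4* reached a mean of 10 in eye discs only and could therefore only come out higher there. The mean of *VhaM9.7-a* corresponds to about 534 normalized counts over the 6 eye libraries and 7.52 over the 6 wing libraries. With its wing mean set to the minimum of 10 the gene was still 10.1-fold higher in eye discs. *Vha36-3* had means of 15.1 and 6.31 and *Vha100-4* had means of 12.9 and 7.16 in eye and wing discs, and their ratios with the wing mean at the minimum were 1.72-fold and 1.47-fold. The means do not show in which libraries or in which genotype these transcripts were present.

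The genes next to *VhaM9.7-a* and *Vha68-1* did not share their ratios. Within 10 kb of *VhaM9.7-a*, 6 genes were measured in both tissues and had log2 ratios from -0.23 to 0.42. Within 10 kb of *Vha68-1*, which lies on chromosome arm 2L of BDGP6.54 from 13000770 to 13004107, 3 genes had log2 ratios from -0.08 to 0.28. *Vha68-2* lies on the same arm from 12974322 to 12978607, with *Vha68-3* 178 bases further on and *Vha68-1* another 19.5 kb away. Genes of a subunit can share reads where their transcripts are alike, and how far this applied was not tested.

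Markers of neurons, glia and haemocytes were also compared between the tissues. Of the 17 V-ATPase genes measured in both, 13 had a log2 ratio above 0 and 4 below. The centring places 4732 of all genes above 0 and 4732 below. Without it the median of the 17 genes was -0.10, so their split rests on the scaling. All 4 neuronal markers of the list, *nSyb*, *Syt1*, *brp* and *para*, were higher in eye discs, with log2 ratios from 0.80 to 6.34 and summed means of 5024 in eye discs and 628 in wing discs. All 4 glial markers, with summed means of 7100 and 2853, and all 5 haemocyte markers, with 9143 and 3255, were higher in eye discs as well, and 0 markers of these 3 lists were at 0 in either tissue. The part of these cell types in the ratios of the V-ATPase genes was not tested, and more cells of a type cannot be told apart from more RNA per cell in such pools. The rows *CG31030* and *ATP6AP2*, which do not carry the Vha name in the tables, encode an AC45-related protein by its annotated name VhaAC45RP and the accessory subunit known as the prorenin receptor. *CG31030* had a mean of 408 in eye discs and 90.6 in wing discs, a log2 ratio of 2.36, and *ATP6AP2* had 3910 and 4465, a log2 ratio of -0.01.

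The other 12 genes had a mean under 10 in both tissues and count as not measured. They are *Vha68-3*, *Vha36-2*, *Vha14-2*, *Vha100-3*, *Vha100-5*, *Vha16-2*, *Vha16-3*, *Vha16-4*, *Vha16-5*, *VhaPPA1-2*, *VhaAC39-2* and *VhaM9.7-d*, all of them further copies of a subunit that has another gene at a high level. Their means reached at most 6.16 in eye discs and 6.45 in wing discs, both for *Vha100-3*. In eye discs 2 of them were listed at 0, and in wing discs 3 were. Of these 12 genes 9 had 1 annotated transcript, against 4 of the 17 genes measured in both tissues. A single exon in the longest transcript was annotated for 6 of 12 against 3 of 17. How these shares compare with those of all genes was not tested. Several of the 12 genes sit next to a copy of the same subunit on the same strand. *Vha16-2* lies 985 bases from *Vha16-3* and *VhaPPA1-2* lies 2052 bases from *VhaPPA1-1*, with *Vha68-3* beside *Vha68-2*. Of 6 testis markers, 5 had a mean under 10 in both tissues, the exception being *twe*. For comparison, 59.0% of all genes reached the minimum in eye discs and 57.2% in wing discs. Whether any of the 12 genes is active in the testis was not tested.

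Exons of 6 of the 32 genes overlap those of another gene on the opposite strand in BDGP6.54, and 0 overlap on the same strand. The overlap was 148 bases for *Vha44* with *Hmgs* and 11 bases for *Vha100-1* with *Alg13*. For *Vha100-4* it was 47 bases with *cona*, whose mean was 20.7 in eye discs and 2.36 in wing discs. Use of the strand in quantification is not given in the sources used here, so reads that fall within these overlaps cannot be assigned to either gene with certainty.

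A list of 8 genes of assembly and regulation, which holds *ATP6AP2* but not *CG31030*, was measured in full in both tissues. Their log2 ratios ranged from -0.10 to 0.18, with 4 above and 4 below 0. *Mitf*, the fly relative of the transcription factors that control lysosome genes in mammals, had a mean of 2546 in eye discs and 3109 in wing discs, a log2 ratio of -0.10. *Rbcn-3A* and *Rbcn-3B*, which encode the rabconnectins that assist assembly of the pump, had log2 ratios of -0.05 and 0.03. Subunits of 2 other large complexes were compared in the same way. Those of the mitochondrial ATP synthase had a median log2 ratio of -0.14 over 12 measured genes, all below 0, and those of the proteasome had 0.04 over 34 measured genes, with a range from -0.07 to 0.98. Of these 34 genes 32 lay within 0.5 on the log2 scale. The other 2 had lower means than the rest. These were 233 in eye discs and 155 in wing discs for *Rpt3R*, and 84.8 and 48.9 for a second row named *Prosalpha1*. These values are descriptions of the lists, and whether they differ from the V-ATPase was not tested.

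**Figure D4:**
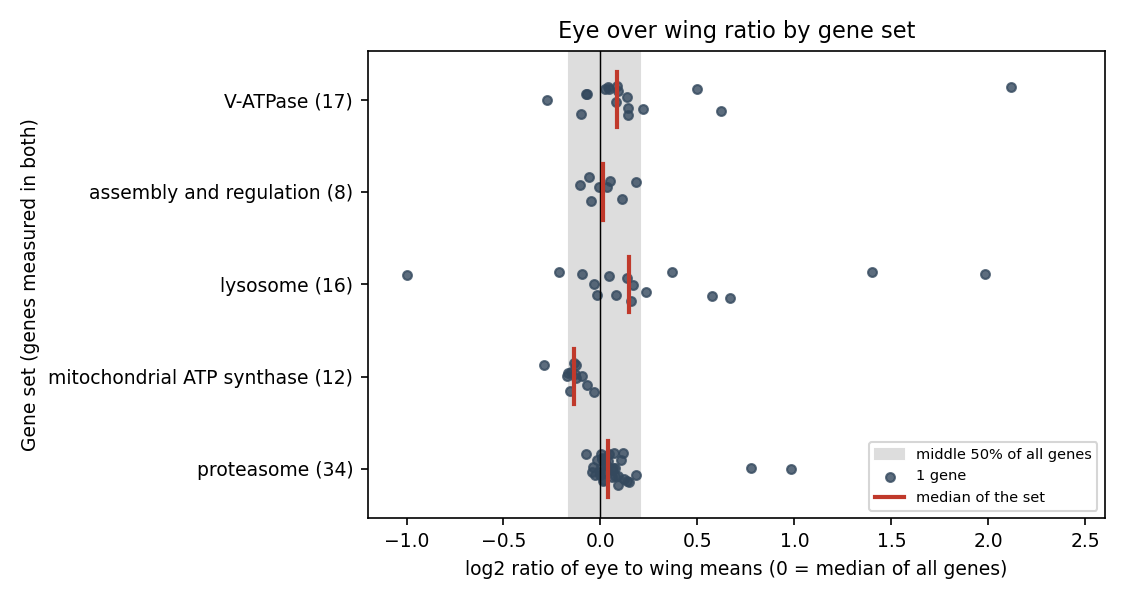
Log2 ratio of the eye mean to the wing mean (x axis, with 0 at the median of all genes) for genes measured in both tissues, by gene set (y axis, number of genes in brackets). Each point is a gene, the red bar is the median of the set and the grey band runs from the lower to the upper quartile of all genes. The medians lie between -0.14 for the mitochondrial ATP synthase and 0.15 for the lysosome list, and the V-ATPase set has its median at 0.08.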

How the data were processed

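RNA-seq libraries of eye antennal and wing discs were quantified by the authors with Salmon against release BDGP6.22 of the *Drosophila melanogaster* genome, imported with tximeta and compared with DESeq2. Versions named in the notes of the submitters on processing are 1.1.0 for Salmon and 1.30.0 for DESeq2. The deposited table of each tissue holds, for 17208 genes, a mean normalized count over 6 libraries, which is a signal scaled by the authors' normalization and not divided by gene length. Its other 5 columns give the fold change, standard error, statistic, p-value and adjusted p of the authors' genotype comparison and were not used. Depth per library is unknown, so no intervals are given, and samples were grouped by their titles.

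Positions and transcript lengths were taken from the BDGP6.54 annotation of Ensembl release 115, which has the coordinates of the same assembly. It matched 17111 genes, of which 28, among them *Vha44*, matched by symbol because the identifier had changed. Levels were divided by the longest transcript of a gene, and eye over wing ratios were centred on the median of the genes with a mean of at least 10 in both tables. No test was made. The centring and the count past 2-fold were tested on simulated counts without biological variation between libraries. Other steps, such as the levels per kilobase and the shares of copies, were not tested in this way. Alternatives were other minimums, scalings, lengths and a fold of 1.5. The genes named are all rows with a Vha symbol and genes of 12 lists (79 symbols, 2 not matched to a row by symbol), and members and lists were chosen with earlier results of these data known. Python 3.11.15, numpy 2.4.6, pandas 2.3.3 and matplotlib 3.10.9 were used. Sequences of the genes were not used here.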

Additional observations from a re-analysis of the deposited data

How the results depend on the processing

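Of 27 alternative values planned, 21 kept their direction and moved by no more than 0.1 on the log2 scale, or by 1.5 times for a count. The median log2 ratio of the V-ATPase genes turned to -0.10 without centring and stayed between 0.08 and 0.12 under the other scalings and minimums. With a fold of 1.5, 2 genes were higher in eye discs in place of 1, the second being *Vha100-1*. The peripheral over membrane ratio was 0.827 in eye discs and 0.802 in wing discs with the coding length, and 1.21 and 1.09 with no division by length. The spans between subunits and the lead of subunit c were recomputed with the other lengths after seeing the data (18 values), and all 18 moved by more than 0.1 on the log2 scale. No paired analysis was possible because the tables used hold 1 pooled mean per tissue. For the same reason leaving out each replicate was not run, and the count of promoters with a CACGTG core was not run because no promoter sequence was used here. Levels under a mean of 10 rest on few reads, and no value has a known error.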

Other observations

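Genes of the lysosome, the compartment that the pump acidifies, were compared between the tissues in the same way. Of 18 listed genes 16 were measured in both tissues, with log2 ratios of the eye mean to the wing mean from -0.995 to 1.98 and a median of 0.15. The hexosaminidase gene *Hexo2* had a mean of 1619 in eye discs and 466 in wing discs, a log2 ratio of 1.98, and the sterol-binding protein gene *Npc2a* had 1440 and 620, a log2 ratio of 1.40. These 2 of 16 genes were at least 2-fold higher in eye discs, where 9.04% of all genes were, and 0 were 2-fold lower, the lowest being the glucocerebrosidase gene *Gba1b*. The membrane protein gene *Lamp1*, at 0.08, and the protease gene *cathD*, at 0.23, were close to the V-ATPase. Haemocyte markers were higher in eye discs with log2 ratios from 0.78 to 1.83, and their part in the lysosome values was not tested.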
